A study of Homo sapiens with 7 samples.

Results

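The 49 genes described here act in mitosis: cyclins and kinases that start it, checkpoint, centromere and kinetochore genes, kinesins of the spindle, proteins of cytokinesis, regulators of anaphase, and condensins with other chromosome proteins. They were taken from the deposited count table by their symbols, and all 49 were found among its 57189 genes and were among the 23124 genes that had enough counts to be tested. They were measured in RH30, an established cell line of alveolar rhabdomyosarcoma, a tumor of the skeletal muscle lineage. Untreated cells (4 samples) were compared with cells given 5 µM BV6 for 24 h (3 samples). BV6 is a Smac mimetic, a small molecule that antagonizes inhibitor of apoptosis proteins, and the study asked how it alters the transcriptome of these cells. The labels give wild-type cells for both groups, while the methods of the study describe RH30 cells that carry GFP and luciferase. RH30 is 1 cell line. The study speaks of biological replicates and the labels do not describe separate cultures, so the p-values measure the spread between these samples of 1 line. The sample titles carry a BC code, which was shared by the untreated and BV6 samples of replicate 2 (BC13), replicate 3 (BC14) and replicate 4 (BC25/27), and untreated replicate 1 (BC11) had no partner.

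Cells enter mitosis when cyclin B binds and activates the kinase CDK1. Chromosomes are then compacted by condensin, attach through kinetochores to spindle microtubules, and are held by the spindle checkpoint until every chromosome is attached. The anaphase-promoting complex, with its activator CDC20, then marks cyclin B and securin for degradation, and the cell divides. Most genes of this machinery are transcribed in the later part of the cell cycle, so their messages are abundant in dividing populations and scarce in resting cells. In many of their promoters an element called CHR (TTTGAA) lies next to CCAAT boxes, which are bound by the factor NF-Y.

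The letters of these elements were searched in the promoters of the members. RefSeq (GRCh38.p14) promoter sequences, 250 bases before to 50 bases after the start, were used for 42 of the 49 genes. On either strand, TTTGAA was found in 29 of the 42 promoters (69%) and in 15.4% of all 27305 promoters of the table. CCAAT was found in 30 (71.4%) and in 35.7% of all promoters, and both elements were found in 21 (50%) and in 6.08%. An E2F element, searched as TTGGCGC or else TTCCCGC or else TTGCCGC or else TTCGCGC, was found in 13 members (31%) and in 13.1% of all promoters. These matches describe letters in a window, and in 2 promoters, those of CDCA8 and MKI67, a CHR and a CCAAT match shared bases.

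The 250 bases before the start are shown for 5 members, with CHR and CCAAT matches of either strand in capitals (CCAAT on the other strand reads ATTGG). CCNB2 was chosen because it holds both elements in a row, and SPC24, SPC25, KIF20A and MKI67 because, of the 5 members with an unadjusted p below 0.05 described below, these 4 had a promoter in the table. Sequences run 5′ to 3′ on the strand of the gene.
CCNB2 (chr15:59104896-59105145, plus strand): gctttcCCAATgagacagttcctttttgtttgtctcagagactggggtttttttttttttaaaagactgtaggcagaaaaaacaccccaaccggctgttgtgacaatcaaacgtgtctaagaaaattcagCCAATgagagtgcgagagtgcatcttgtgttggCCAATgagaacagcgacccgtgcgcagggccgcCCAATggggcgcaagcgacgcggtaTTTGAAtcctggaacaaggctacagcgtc
SPC24 (chr19:11155783-11156032, minus strand): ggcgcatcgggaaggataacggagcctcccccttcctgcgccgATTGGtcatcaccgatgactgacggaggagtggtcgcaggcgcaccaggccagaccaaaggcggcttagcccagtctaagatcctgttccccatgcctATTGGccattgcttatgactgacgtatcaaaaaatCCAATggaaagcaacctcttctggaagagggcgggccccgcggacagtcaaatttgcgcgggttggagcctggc
SPC25 (chr2:168890431-168890680, minus strand): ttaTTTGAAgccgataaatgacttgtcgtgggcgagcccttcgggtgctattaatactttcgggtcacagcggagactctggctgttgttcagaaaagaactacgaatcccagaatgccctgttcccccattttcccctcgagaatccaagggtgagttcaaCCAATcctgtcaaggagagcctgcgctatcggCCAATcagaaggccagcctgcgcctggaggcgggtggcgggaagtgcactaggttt
KIF20A (chr5:138178862-138179111, plus strand): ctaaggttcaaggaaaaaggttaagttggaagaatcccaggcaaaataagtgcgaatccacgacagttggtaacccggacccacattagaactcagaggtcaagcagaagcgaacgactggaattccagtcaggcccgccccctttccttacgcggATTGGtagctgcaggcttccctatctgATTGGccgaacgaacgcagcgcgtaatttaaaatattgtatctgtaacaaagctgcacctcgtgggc
MKI67 (chr10:128126424-128126673, minus strand): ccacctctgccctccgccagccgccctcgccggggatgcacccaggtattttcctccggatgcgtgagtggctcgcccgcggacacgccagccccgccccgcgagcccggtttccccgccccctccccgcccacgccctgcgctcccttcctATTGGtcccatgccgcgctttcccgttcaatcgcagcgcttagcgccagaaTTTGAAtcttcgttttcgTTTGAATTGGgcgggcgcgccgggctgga
In CCNB2 the CCAAT boxes began at -244, -120, -87 and -54 and the CHR at -29, counted from the start. SPC24 held CCAAT matches at -207, -109 and -74 and no TTTGAA in this window. SPC25 held CCAAT at -88 and -56 and a TTTGAA at -247, farther from the start than its CCAAT boxes. KIF20A held CCAAT matches at -94 and -67, both on the other strand. MKI67 held TTTGAA at -47 and -29 and CCAAT matches at -98 and -24 on the other strand. CCAAT letters were thus present in all 5 stretches, and of these TTTGAA lay close to the start in CCNB2 and MKI67. Other members had it there too, such as PLK1 at -29 and INCENP at -10.

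Levels are given as CPM, counts scaled to the normalized size of each library. Differences were tested by the quasi-likelihood method of edgeR, with Benjamini-Hochberg adjustment over all tested genes. Library totals lay between 54070030 and 77220882 counts, and a member had at least 1106 counts in every sample, so counting error was small beside the spread between samples. Together the members took 0.794 to 1.01% of all counts. Per kilobase of exon, the members had a median of 32.1 CPM in untreated cells, against 3.49 CPM per kilobase over the 17460 tested genes with a known length. TPX2, an activator of the kinase AURKA at the spindle, was highest with 158 ± 3.13 CPM per kilobase (SD, n = 4), followed by CDC20 with 149 ± 15 and TOP2A, topoisomerase II alpha, with 133 ± 15. The intervals of mean ± SD overlapped between TPX2 and CDC20 and between CDC20 and TOP2A. The lowest level was that of CDC25C, a phosphatase that activates CDK1, with 7.32 ± 0.674 CPM per kilobase. The treatment itself was visible in 4 genes that are known to respond to Smac mimetics, BIRC3, NFKB2, NFKBIA and TRAF1, which all rose with a median log2 fold change of 2.87. Markers of rhabdomyosarcoma were present in every library (MYOD1 157 to 474 CPM, MYOG 78.8 to 226 CPM, DES 451 to 865 CPM). Of these 11 markers, 9 had log2 fold changes below 0 and 0 were called (median -0.27). Of 16 leukocyte markers 0 to 2 were at 0 counts per library, and the leukocyte antigen PTPRC had 11 to 58 counts. The summed leukocyte level was 116 to 146 CPM untreated and 62.4 to 102 CPM with BV6, without overlap. PTPRC gave at most 0.801 CPM of it, so other genes of that list carried the sum. Of the 11 leukocyte markers tested 8 lay below 0 (median -0.36, 0 called), beside 52.3% of all tested genes. With the BC code as a replicate block, 6 of the 11 lay below 0 (median -0.11). In that fit 1 of them was called lower, beside 68 of all 23124 tested genes. Both lists thus had a median below 0, as did the members. In the BC25/27 pair, however, 6 of the 11 rhabdomyosarcoma and 5 of the 11 leukocyte markers were lower with BV6, beside all 49 members. The part of these lists in the results was not tested.

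No member was called changed by BV6. At an adjusted p below 0.05, 0 of the 49 genes passed edgeR's test, beside 104 of 23124 genes (0.45%), of which 91 rose and 13 fell. Without adjustment, 5 members had p below 0.05 in the lower direction (FOXM1, SPC24, SPC25, KIF20A and MKI67), beside 4.26% of all genes. The DESeq2 Wald test, which gave more false calls than edgeR in simulated data, called 1 member lower, SPC24, beside 0.639% of all genes. In bulk RNA, fewer mitotic cells and less RNA of these genes per cell cannot be told apart.

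The fold changes nevertheless lay mostly on the lower side of 0. A log2 fold change below 0 was found for 48 of the 49 members, beside 52.3% of all tested genes, and the median was -0.12, beside -0.01 for all genes. Log2 fold changes ranged from -0.51 for SPC24 to 0.05 for BUB1. The 95% intervals of all 49 members lay between -0.78 (lower bound of CDC25B) and 0.37 (upper bound of BUB1), and 39 of them lay within -0.5 to 0.5. All BV6 samples were below all untreated samples for 4 members (CDCA8, SPC24, KIF20A and MKI67), beside 3.89% of all genes, and above them for 0 members, beside 4.94%. The members share their libraries and vary together, so the number of genes on 1 side of 0 is not a number of separate observations. Leaving out BV6 replicate 2 left 39 members below 0 (median -0.05) and leaving out untreated replicate 4 left 40 (median -0.08), the lowest numbers over the 7 samples left out in turn.

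**Figure D1:**
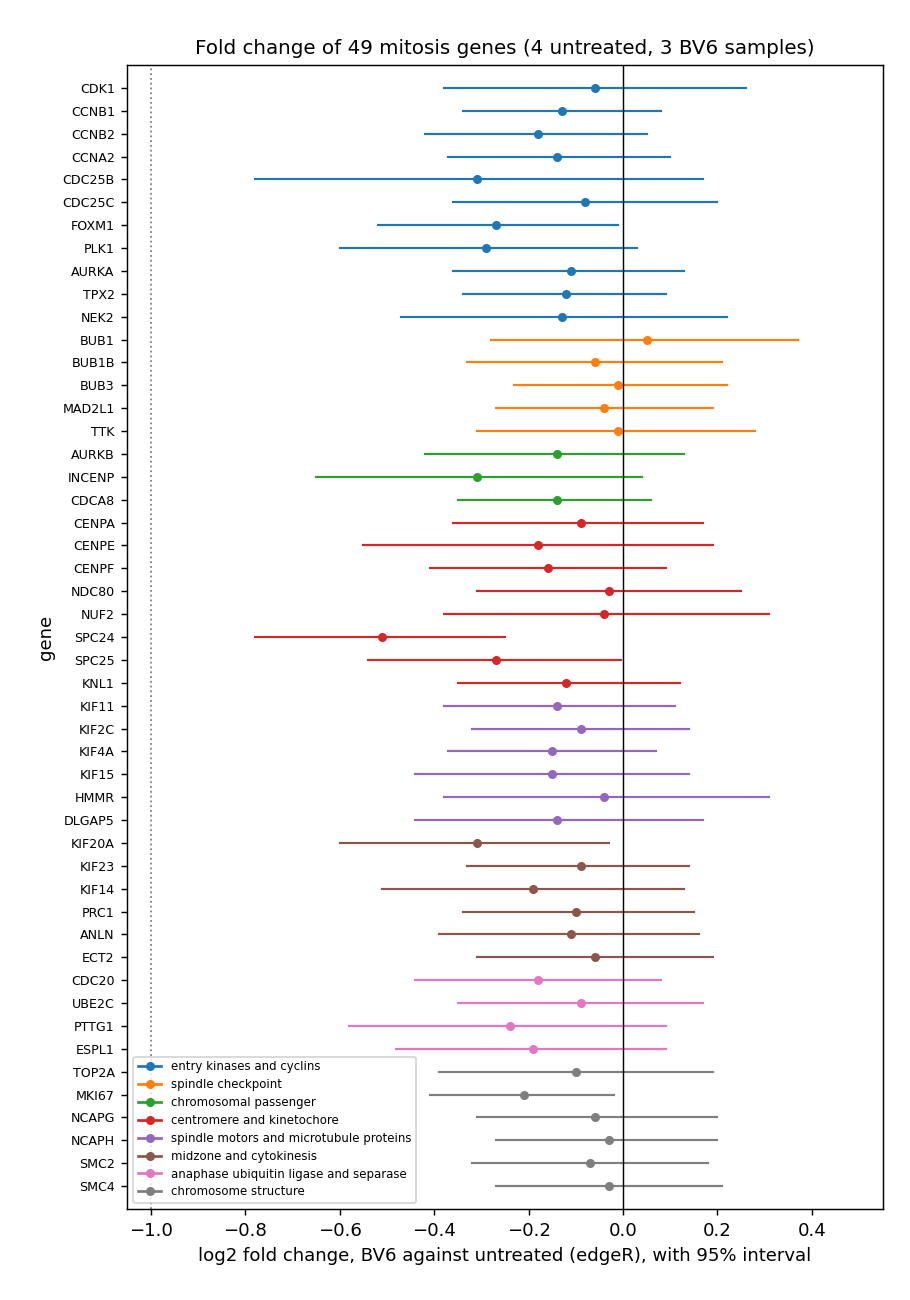
Log2 fold change of BV6 against untreated (x axis) for each of the 49 members (y axis, colored by role), from edgeR, with its 95% interval as a line. The points lie between -0.51 (SPC24) and 0.05 (BUB1), and every interval stays between the dotted line at -1 and 0.37.

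Averaged over the members, log2 CPM was 7.06, 7.08, 7.14 and 7.24 in untreated replicates 1 to 4 and 6.90, 7.07 and 7.01 in BV6 replicates 2 to 4. The groups overlapped narrowly, since BV6 replicate 3 (7.07) lay just above untreated replicate 1 (7.06). This overlap depended on the scaling of the libraries. With RLE factors in place of TMM, BV6 replicate 3 was the highest BV6 sample at 7.06. The lowest untreated samples, replicates 1 and 2, were then at 7.08, so the groups did not overlap. With TMM the means were 7.13 ± 0.0795 (SD, n = 4) and 6.99 ± 0.088 (SD, n = 3). By role, the difference of these means was smallest for the spindle checkpoint (-0.01) and largest for the chromosomal passenger genes (-0.21). The latter rested on BV6 replicate 3, since the median difference of these genes was -0.30 in BC14 and -0.06 in both BC13 and BC25/27.

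**Figure D2:**
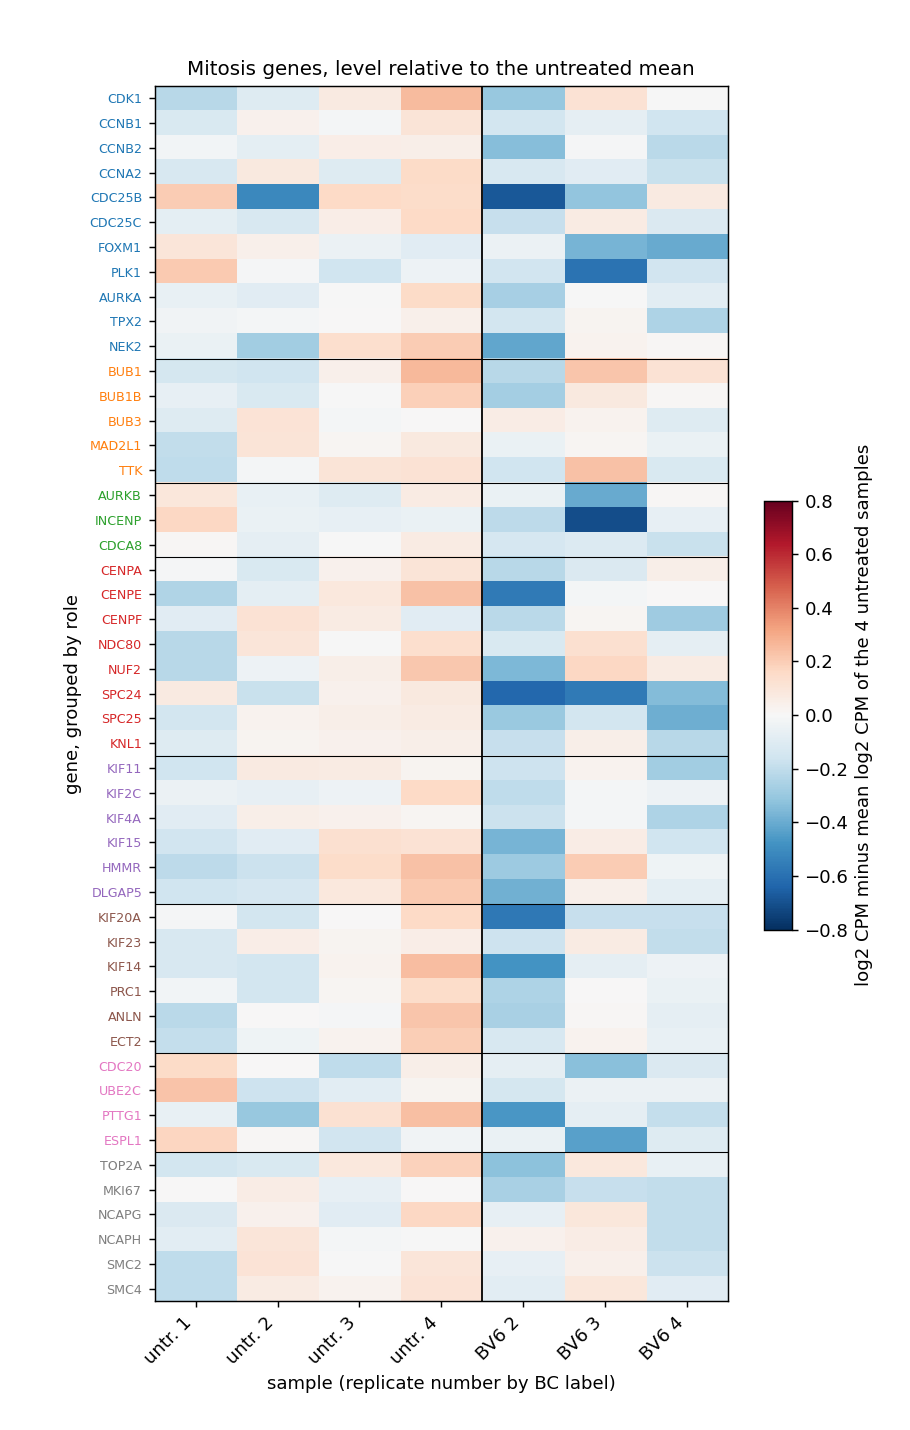
Level of each member (rows, grouped by role) in each of the 7 samples (columns), as log2 CPM minus the mean log2 CPM of the 4 untreated samples, with the number of the replicate under each column. Blue is below and red above the untreated mean, and BV6 replicate 2 is blue for most genes, while BV6 replicate 3 is near 0 for most genes and clearly blue for INCENP, PLK1, SPC24 and ESPL1, among others.

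Among the 11 entry kinases and cyclins, 0 passed the test and all 11 had log2 fold changes below 0 (median -0.13). CDK1, the kinase that drives entry into mitosis, was at 130, 141, 159 and 181 CPM in untreated replicates 1 to 4 and at 123, 164 and 151 CPM in BV6 replicates 2 to 4. The groups overlapped (log2 fold change -0.06 ± 0.143 SE, edgeR adjusted p = 0.926). CCNB1, its cyclin partner, was at 214, 238, 230 and 250 CPM untreated and at 210, 221 and 208 CPM with BV6. Only BV6 replicate 3 lay within the untreated range (log2 fold change -0.13 ± 0.0944 SE, edgeR adjusted p = 0.757). CCNB2 and CCNA2, a further B-type cyclin and cyclin A2, had log2 fold changes of -0.18 and -0.14.

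FOXM1, a transcription factor that drives many genes of this group, was at 334, 321, 303 and 294 CPM untreated and at 303, 242 and 236 CPM with BV6. BV6 replicate 2 reached the untreated range while the other BV6 samples lay below it (log2 fold change -0.27 ± 0.115 SE, edgeR adjusted p = 0.585). PLK1, a kinase of centrosome maturation and kinetochores, was at 126, 108, 97.4 and 106 CPM untreated and at 98, 72.3 and 98 CPM with BV6. Its lowest sample was BV6 replicate 3 (log2 fold change -0.29 ± 0.14 SE, edgeR adjusted p = 0.626). AURKA, a kinase of the spindle poles, was at 93.4, 91.4, 96.9 and 108 CPM untreated and at 80.8, 97.2 and 91.7 CPM with BV6, with overlapping groups (log2 fold change -0.11, edgeR adjusted p = 0.807).

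CDC25B, a phosphatase that activates CDK1 with its cyclins, had the largest standard error of the members. Its level was 363, 221, 353 and 350 CPM in untreated replicates 1 to 4 and 197, 253 and 331 CPM in BV6 replicates 2 to 4. The samples of replicate 2, which share the code BC13, were the lowest of either group, and the groups overlapped (log2 fold change -0.31 ± 0.211 SE, edgeR adjusted p = 0.744). CDC25C, TPX2 and NEK2, a kinase of centrosome separation, had log2 fold changes of -0.08, -0.12 and -0.13.

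The 5 spindle checkpoint genes, whose products delay anaphase until chromosomes are attached, lay closest to 0, with a median of -0.01 and 0 genes called. BUB1, a checkpoint kinase at kinetochores, was at 153, 151, 174 and 202 CPM untreated and at 145, 197 and 183 CPM with BV6. It was the only member with a log2 fold change above 0 (0.05 ± 0.143 SE, edgeR adjusted p = 0.949), and with the BC code as a replicate block the value was -0.0029. BUB1B, which encodes the checkpoint protein BUBR1, was at 112, 108, 117 and 134 CPM untreated and at 97.2, 124 and 118 CPM with BV6, so that 2 of the 3 BV6 samples lay in the untreated range (log2 fold change -0.06, edgeR adjusted p = 0.92). The partners BUB3, MAD2L1 and TTK, the last a kinase that starts checkpoint signaling, had log2 fold changes of -0.01, -0.04 and -0.01.

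The chromosomal passenger complex corrects faulty attachments, and none of its 3 members in the list was called. AURKB, its kinase, was at 109, 98, 95.3 and 107 CPM untreated and at 98.4, 77.3 and 103 CPM with BV6 (log2 fold change -0.14, edgeR adjusted p = 0.788). INCENP, its scaffold, was at 149, 128, 127 and 128 CPM untreated and at 115, 81 and 127 CPM with BV6 (log2 fold change -0.31 ± 0.153 SE, edgeR adjusted p = 0.638). For both genes BV6 replicate 3 was the lowest sample and another BV6 sample lay within the untreated range. Without BV6 replicate 3 the log2 fold changes were -0.02 for AURKB and -0.13 for INCENP. CDCA8, which encodes borealin, was at 116, 110, 115 and 121 CPM untreated and at 105, 107 and 102 CPM with BV6. Here the groups did not overlap, but the distance was small (log2 fold change -0.14 ± 0.09 SE, edgeR adjusted p = 0.726). BIRC5 (survivin), the fourth subunit of the complex and a gene outside the list of members, was at 174, 179, 177 and 184 CPM untreated and at 152, 134 and 153 CPM with BV6. Its groups did not overlap either (log2 fold change -0.29 ± 0.0932 SE, edgeR adjusted p = 0.385).

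The 8 centromere and kinetochore genes held the member with the lowest fold change, and 0 of them passed edgeR's test. CENPA, the histone H3 variant of centromeres, was at 31.9, 29.5, 32.9 and 34.5 CPM untreated and at 27.6, 29.7 and 33.2 CPM with BV6, with overlapping groups (log2 fold change -0.09, edgeR adjusted p = 0.85). CENPE, a kinesin of the kinetochore, was at 118, 132, 148 and 164 CPM untreated and at 94.3, 138 and 140 CPM with BV6. BV6 replicate 2 was its lowest sample (log2 fold change -0.18 ± 0.165 SE, edgeR adjusted p = 0.805), and without it the log2 fold change was -0.0031. CENPF, a large protein of the outer kinetochore, and KNL1, which binds checkpoint proteins and microtubules, had log2 fold changes of -0.16 and -0.12.

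The NDC80 complex is the main microtubule anchor of the kinetochore and is built from NDC80 and NUF2 at its microtubule end and from SPC24 and SPC25 at its centromere end. NDC80 was at 36.5, 45.6, 42.5 and 46.7 CPM untreated and at 39.2, 46.5 and 40.5 CPM with BV6. NUF2 was at 38.9, 44.1, 47 and 52.8 CPM untreated and at 35.4, 50.9 and 47.5 CPM with BV6. For both genes most BV6 samples lay within the untreated range (log2 fold changes -0.03 and -0.04, edgeR adjusted p = 0.968 and 0.965). SPC24 was at 54.3, 45.7, 52.9 and 54.6 CPM untreated and at 33.5, 35 and 40.6 CPM with BV6. Every BV6 sample lay below every untreated sample, with means of 51.9 ± 4.17 (SD, n = 4) and 36.4 ± 3.74 CPM (SD, n = 3). The log2 fold change was -0.51 ± 0.119 SE with a 95% interval from -0.78 to -0.25, and it missed the threshold in edgeR (unadjusted p = 0.00172, adjusted p = 0.155) while it passed in DESeq2 (adjusted p = 0.0139). SPC25 was at 24.3, 27.4, 27.8 and 28.1 CPM untreated and at 21.9, 24.3 and 20.5 CPM with BV6. BV6 replicate 3 came level with the lowest untreated sample (log2 fold change -0.27 ± 0.119 SE, edgeR adjusted p = 0.589).

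The ratio of SPC24 to NDC80 was looked at after these values were seen and is given as a description. As log2 of the ratio of counts, it was 0.57, 0.0039, 0.32 and 0.23 in untreated replicates 1 to 4 and -0.23, -0.41 and 0.004 in BV6 replicates 2 to 4. BV6 replicate 4 and untreated replicate 2 had almost the same ratio, so the groups met, although within each BC code the BV6 sample had the lower ratio. The GC content of the longest transcript is 53.3% for SPC24 and 39.6% for NDC80, and its part in this ratio was not tested. For SPC25 and NUF2 the log2 ratio was -0.68, -0.69, -0.76 and -0.91 untreated and -0.69, -1.06 and -1.21 with BV6, also with overlap.

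**Figure D3:**
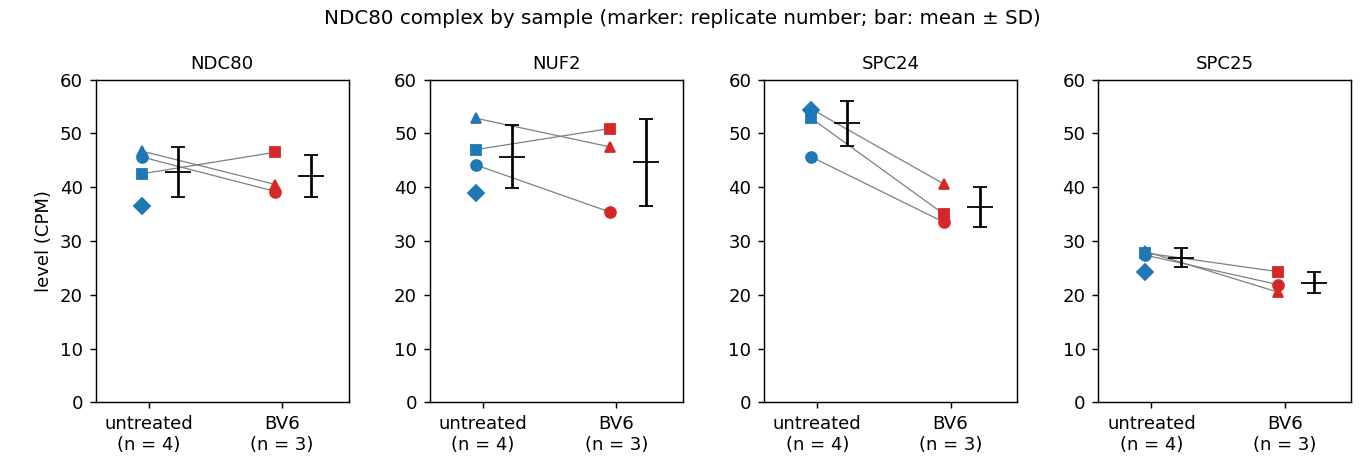
Level in CPM (y axis, from 0) of the 4 genes of the NDC80 complex in untreated (blue) and BV6 samples (red). Each marker is a sample, a marker shape is a replicate number, lines join samples of the same BC code, and bars give mean ± SD. SPC24 lies at 45.7 to 54.6 CPM untreated and at 33.5 to 40.6 CPM with BV6, while the groups overlap for NDC80 and NUF2.

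Of the 6 spindle motors and microtubule proteins 0 were called, and all had log2 fold changes between -0.15 and -0.04. KIF11, the kinesin that pushes spindle poles apart, was at 167, 196, 195 and 189 CPM untreated and at 166, 190 and 154 CPM with BV6 (log2 fold change -0.14, edgeR adjusted p = 0.775). KIF4A, a kinesin of chromosome arms and the midzone, was at 129, 142, 141 and 139 CPM untreated and at 122, 136 and 116 CPM with BV6 (log2 fold change -0.15 ± 0.098 SE, edgeR adjusted p = 0.742). In both genes BV6 replicate 3 lay within the untreated range and the other BV6 samples below it. HMMR, a microtubule protein of the spindle, was at 108, 111, 138 and 147 CPM untreated and at 102, 144 and 122 CPM with BV6, and in both groups replicates 3 and 4 lay above replicate 2 (log2 fold change -0.04, edgeR adjusted p = 0.965). KIF2C, a kinesin that takes microtubules apart at centromeres, had a log2 fold change of -0.09, KIF15, a further spindle kinesin, of -0.15, and DLGAP5, a stabilizer of spindle fibers, of -0.14.

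The 6 genes of the midzone and cytokinesis also gave 0 calls. KIF20A, a kinesin needed for cytokinesis, was at 186, 169, 188 and 209 CPM untreated and at 126, 165 and 165 CPM with BV6. All BV6 samples lay below all untreated samples (log2 fold change -0.31 ± 0.127 SE, edgeR adjusted p = 0.559). KIF14, a kinesin of the midbody, was at 82.4, 81.6, 92.1 and 107 CPM untreated and at 64.9, 85.9 and 87.6 CPM with BV6, with overlapping groups (log2 fold change -0.19, edgeR adjusted p = 0.766, and -0.06 without BV6 replicate 2). PRC1, which bundles midzone microtubules, was at 217, 199, 222 and 244 CPM untreated and at 185, 220 and 212 CPM with BV6 (log2 fold change -0.10, edgeR adjusted p = 0.831). Its counts are uncertain, because 57.6% of its exonic bases also belong to another annotated gene on the same strand and 34.26% to PRC1-AS1 on the other strand. The gene on the same strand had no row under its name in the count table, while PRC1-AS1 had one. KIF23, a part of centralspindlin, ANLN (anillin), a scaffold of the contractile ring, and ECT2, an activator of RhoA, had log2 fold changes of -0.09, -0.11 and -0.06.

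Among the 4 regulators of anaphase, 0 were called and the median log2 fold change was -0.18. CDC20, the activator of the anaphase-promoting complex, was at 332, 299, 260 and 309 CPM untreated and at 284, 237 and 276 CPM with BV6 (log2 fold change -0.18 ± 0.116 SE, edgeR adjusted p = 0.738). PTTG1, which encodes securin, the inhibitor of separase, was at 129, 109, 146 and 159 CPM untreated and at 97.4, 128 and 118 CPM with BV6 (log2 fold change -0.24 ± 0.149 SE, edgeR adjusted p = 0.721). The untreated samples of both genes spread widely, and the groups overlapped. UBE2C, the ubiquitin-conjugating enzyme of the complex, and ESPL1, separase, had log2 fold changes of -0.09 and -0.19.

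Chromosome structure genes gave 0 calls of 6. TOP2A, which untangles DNA, was at 761, 775, 896 and 959 CPM untreated and at 673, 893 and 808 CPM with BV6 (log2 fold change -0.10, edgeR adjusted p = 0.858). MKI67, the Ki-67 antigen that coats mitotic chromosomes, was at 751, 780, 714 and 750 CPM untreated and at 624, 659 and 654 CPM with BV6. Its BV6 samples all lay below its untreated samples, and it had the smallest standard error of all members (log2 fold change -0.21 ± 0.0878 SE, edgeR adjusted p = 0.559). The condensin genes SMC2, SMC4, NCAPG and NCAPH had log2 fold changes of -0.07, -0.03, -0.06 and -0.03.

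The members differed between the pairs of samples that shared a BC code. In BC13 the BV6 sample was lower than its untreated partner for 47 of the 49 members, with a median difference in log2 CPM of -0.16. In BC25/27 it was lower for 49 (median -0.24), whereas in BC14 it was lower for 28 (median -0.01). The medians over all tested genes were -0.00055, 0.0017 and -0.05 in the same order of pairs. Lower in all 3 pairs were 27 members (55.1%), beside 17.8% of all genes. With the BC code as a replicate block, 49 members had a log2 fold change below 0 (54.1% of all genes) with a median of -0.14, and 0 members were called, beside 0.943% of all genes. SPC24 was the nearest to the threshold in that fit (adjusted p = 0.0711 in edgeR).

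In the BC14 pair the differences went with GC content. Across the 49 members, the difference in log2 CPM correlated with the GC content of the longest transcript at r = 0.32 in BC13, r = -0.72 in BC14 and r = 0.36 in BC25/27, where all genes with known GC content gave -0.05, -0.46 and 0.21. These are correlations across genes that share their libraries. The 10 members with a GC content above 50%, INCENP, CDC25B, PLK1 and SPC24 among them, had a median difference of -0.31 in BC14 with a wide spread (from -0.64 for INCENP to 0.02 for KIF2C), and the other 39 had a median of 0.0047. INCENP differed by -0.64 in BC14 but by -0.16 in BC13 and -0.01 in BC25/27. SPC24, with differences of -0.45, -0.60 and -0.43, was low in every pair. The deviation of a library correlated with GC content over all genes from -0.61 in BV6 replicate 3 to 0.51 in untreated replicate 1. A fit with a correction for GC content follows, and its part in the results was not tested beyond that fit.

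**Figure D4:**
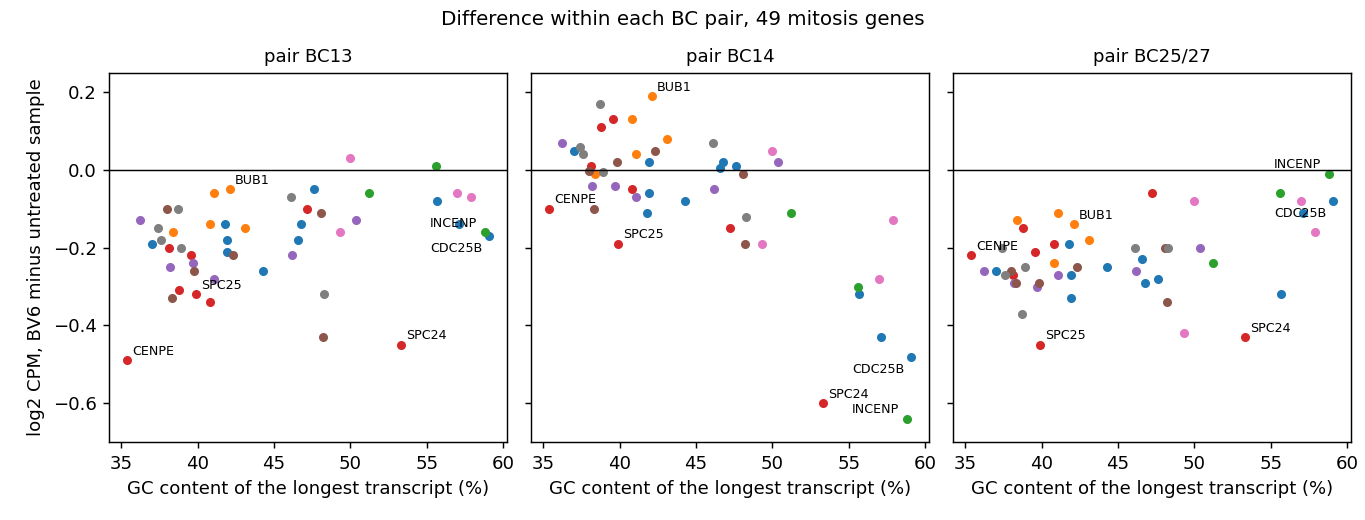
Difference in log2 CPM between the BV6 and the untreated sample of a BC code (y axis) against GC content in percent (x axis) for the 49 members, 1 panel per pair, with points colored by role as in the plot of fold changes. In BC14 the lowest points (INCENP -0.64, SPC24 -0.60, CDC25B -0.48) lie above 50% GC, where KIF2C (0.02) lies near 0, while in BC25/27 all 49 points lie below 0.

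After a correction of each library for GC content, fitted with the replicate block, 6 members were called lower, SPC24 (-0.48, edgeR adjusted p = 0.00205), KIF20A (-0.33, 0.018), SPC25 (-0.35, 0.0253), KIF14 (-0.27, 0.0292), CENPE (-0.31, 0.0382) and PTTG1 (-0.26, 0.0461). They made up 12.2% of the members, beside 3.4% of the 17460 genes with known GC content that were called lower in that fit. The median log2 fold change of the members was then -0.17. With the replicate block on the same genes but no correction, 0 members were called and the median was -0.15. Over all these genes, 178 were called without the correction and 1164 with it. The corrected fit was not run on simulated data. NDC80, NUF2 and CENPA were not called in this fit either. Of the genes outside the list, BIRC5 (-0.30, edgeR adjusted p = 0.0125) and MYBL2 (-0.32, edgeR adjusted p = 0.00931) were called lower in it, while both missed the threshold without the correction. Such calls also occurred outside the members. The same fit called 3 of 77 other mitotic genes lower, a share near the 3.4% over all genes. It also called 4 of 23 regulators, 6 of 40 genes of DNA replication and 3 of 11 rhabdomyosarcoma markers lower, shares above the 12.2% of the members. Of the 11 leukocyte markers tested it called 1 lower.

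Levels of the members were also compared between the BC codes, over both treatments. Over the 6 paired samples, 1 member, CDC25B, passed an edgeR F-test between BC codes (adjusted p = 0.0321, log2 range 0.72), which is 2.04% of the members, beside 3.66% of all tested genes. At an unadjusted p below 0.05 there were 12 members (24.5%), beside 24.4% of all genes, so the shares were alike. The median range between BC codes was 0.24 on the log2 scale for the members and 0.40 for all tested genes. In CDC25B the code BC13 was lowest (221 and 197 CPM) and BC25/27 highest (350 and 331 CPM). After untreated replicate 2 was left out 0 members passed, beside 4.03% of all genes, and after BV6 replicate 2 was left out again 0, beside 4.25%. Without untreated replicate 3 there were 16 (32.7%), beside 21.1% of all genes, and without untreated replicate 4 there was 1, beside 10.8%. Without BV6 replicate 3 the number was 6 (12.2%), beside 11.6%, and without BV6 replicate 4 it was 7 (14.3%), beside 16.8%. The same test after the GC correction called 7 members (14.3%), beside 25% of all genes. The count of members did not follow the count over all genes throughout. It stayed at 1 where 10.8% of all genes passed, and it was 16 at 21.1% but 7 at 25%.

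Genes around the members in the same process were compared from lists written by hand. Of 77 other mitotic genes 0 were called and 58 had log2 fold changes below 0 (median -0.07). Of 23 known regulators of mitotic genes 0 were called and 11 lay below 0, with a median of 0.00028. MYBL2, a transcription factor that acts with the MuvB core at CHR elements, was at 376, 373, 295 and 291 CPM untreated and at 288, 172 and 263 CPM with BV6. All its BV6 samples lay below its untreated samples, by little in BV6 replicate 2 (log2 fold change -0.47 ± 0.183 SE, edgeR adjusted p = 0.538). CDKN1A, the inhibitor p21, was at 164, 103, 137 and 167 CPM untreated and at 128, 111 and 169 CPM with BV6, with overlapping groups (log2 fold change -0.07, edgeR adjusted p = 0.944). Of 40 genes of DNA replication 0 were called between treatments, and 35 lay below 0 with a median of -0.12, the same median as that of the mitotic members.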

How the data were processed

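RNA of RH30 cells was sequenced in 7 samples, 4 untreated and 3 treated with BV6. Per the labels and the methods of the study, stranded poly(A) libraries were mapped to GRCh38 (Ensembl release 95) with STAR 2.6.1d. The authors deposited raw counts per gene, not normalized, from a union model of the isoforms of each gene. Neither the counting program nor its use of strand is given in the sources used here, so counts of the 17 members that share exonic bases with another gene are uncertain. The totals exceed the reads per library that the study describes, and the cause was not tested.

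The quasi-likelihood test of edgeR 4.0.16 (R 4.3.3) was run with the condition as its only term, after filterByExpr (minimum count 10) and TMM scaling, with Benjamini-Hochberg adjustment. CPM refer to TMM-normalized library sizes, log2 CPM used a prior count of 2, and standard errors come from the fold change and its F statistic. GC content, exon lengths and overlaps were taken from GENCODE 44. Alternatives were DESeq2 1.42.0, limma-voom (limma 3.58.1), RLE factors, other filters, the replicate block, samples left out in turn, and a loess correction for GC content (span 0.5). The scripts were tested on simulated data with 200 changed genes, whose simulated effect was 2 on the log2 scale. The members differed far less between treatments, with log2 fold changes from -0.51 to 0.05. Recovery in the simulation therefore does not show how often changes as small as theirs would be called. Between treatments edgeR recovered 198 with 8 false calls, and the DESeq2 Wald test 199 with 51. Between BC codes edgeR recovered 193 with 14 false calls, and the DESeq2 likelihood ratio test 198 with 108. Calls by DESeq2 were thus less strictly controlled in that simulation. The fits with the GC correction were not part of it, so their false calls are not known. The BC codes were treated as pairs, because samples with the same code deviated together (r = 0.515, 0.322 and 0.197 for BC13, BC14 and BC25/27 over the 6 paired samples, and 0.462, 0.438 and 0.0847 over all 7, where samples of different codes reached 0.278, so the pairing of BC25/27 is weakly borne out). Exact permutation of 4 against 3 samples cannot give a two-sided p below 0.0571 and was not used for single genes. The members and gene lists were chosen with earlier results of these data known. Values in every sample are given for 14 members chosen by function, for the member of each role with the smallest p in either test, and for BIRC5, CDKN1A and MYBL2. CDCA8, NUF2 and SPC25 were added after their values were seen.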

Additional observations from a re-analysis of the deposited data

Results flagged for a closer look

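In 52 genes examined, the untreated group held a sample that stood far from the other 3 in 3 genes, by the gap of the extreme sample divided by the range of the group. For CDC25B this ratio was 0.91, with untreated replicate 2 at 221 CPM and the others at 350 to 363 CPM. For INCENP it was 0.912, with untreated replicate 1 at 149 CPM and the others at 127 to 128 CPM. For KIF2C it was 0.866, with untreated replicate 4 at 180 CPM and the others at 154 to 157 CPM. Chance alone marks about 1 in 20 groups in this way, and a different library stood apart in each gene.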

How the results depend on the processing

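The number of members called by BV6 was 0 with RLE factors, without a filter on low counts, with at least 10 counts in every sample, with limma-voom, with the replicate block and without each of the 7 samples in turn. It was 1 with the DESeq2 Wald test and 6 with the GC correction and replicate block. The 104 genes called over the whole table became 401 with DESeq2, 242 without a filter, 218 with the replicate block, 178 with the block on genes of known GC content, 1164 with the GC correction, and 38 (without untreated replicate 3) to 89 (without BV6 replicate 3) without 1 sample. The members' median of -0.12 stayed below 0 in all of these fits. The mean log2 CPM of the members overlapped between the groups with TMM but not with RLE factors. Of 27 single genes, 7 changed sign in some fit. BUB1 (0.05) became -0.0029 with the replicate block, -0.01 with the block on genes of known GC content and -0.03 with the GC correction, and CDKN1A (-0.07) became 0.01, 0.01 and 0.08. Without 1 sample, log2 fold changes were -0.15 to 0.05 for CDK1, -0.13 to 0.05 for BUB1B, -0.10 to 0.03 for NDC80, -0.19 to 0.01 for TOP2A, -0.16 to 0.09 for HMMR, -0.04 to 0.17 for BUB1 and -0.26 to 0.06 for CDKN1A. Between BC codes, 833 genes and 1 member became 2109 genes with the DESeq2 likelihood ratio test, 4164 and 4 without a filter, 66 and 0 with all 7 samples, 4312 and 7 with the GC correction, and 952 to 4888 and 0 to 16 without 1 sample. The replicate block changed no call among the members. GC content was known for all 49 members but for 75.5% of the tested genes, so values over all genes that use it leave out the rest.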
